A study of Mus musculus with 6 samples.

Results

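The 10 CXC chemokine ligand genes Cxcl1, Cxcl2, Cxcl3, Cxcl5, Cxcl9, Cxcl10, Cxcl12, Cxcl13, Cxcl14 and Cxcl16 were followed across 6 Affymetrix arrays of cultured mouse heart cells. They were chosen by name from the platform's probe annotation, all 10 were found among 19505 named genes, and each had 1 probe set. Cardiac fibroblasts (CF) and cardiomyocytes (CM) were each cultured for 48 h. They were given phosphate-buffered saline (PBS, arrays titled Sham), the secretome of Ccrl2+ macrophages or the secretome of Ccrl2- macrophages. There was 1 array for each of the 6 groups. All mice are labelled C57BL/6N and 15 to 16 weeks old, with no engineered allele. The macrophages came from 6 hearts mixed together, taken 1 week after transverse aortic constriction (TAC), which loads the heart with pressure, so each secretome stands for a pool and not for separate animals. The labels name the secretome in the source field but co-culture with the macrophages themselves in the protocols, and which was used cannot be told from the values. With 1 array per group no spread between samples exists and nothing could be tested, and that small number of arrays sets the precision of all that follows.

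CXC chemokines are small secreted proteins that steer leukocytes by binding G-protein-coupled receptors on them. The members Cxcl1, Cxcl2, Cxcl3 and Cxcl5 carry the ELR motif, signal through Cxcr2 and are known for drawing neutrophils to injured tissue, the infarcted or pressure-loaded heart included. Cxcl9 and Cxcl10 are induced by interferons and attract Cxcr3-bearing T cells. Cxcl12 keeps Cxcr4-bearing progenitors and lymphocytes in place, Cxcl13 attracts B cells through Cxcr5, Cxcl14 is made by many epithelial and stromal cells, and Cxcl16 is a membrane-anchored ligand of Cxcr6 that can be shed. Transcription of the ELR ligands and of Cxcl10 is known to depend on NF-kB, and that of Cxcl9 and Cxcl10 on interferon signalling.

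The stretches upstream of the transcription start of Cxcl1, Cxcl2, Cxcl3 and Cxcl10 are shown because they hold NF-kB matches and these 4 genes were higher on the CF Ccrl2- array than in PBS. That of Cxcl13 is shown because it was higher on that array too and holds no such match. That of Cxcl12 is shown because its level differed from PBS by less than 2-fold with either secretome in both cell types. They are RefSeq sequences of build GRCm38.p6, written 5′ to 3′ in the direction of the gene and ending at the last base before the start. Capitals mark matches to the NF-kB consensus, searched on both strands, and in Cxcl10 also the match to GAAANNGAAA, the core of the interferon-stimulated response element.
Cxcl1 (chr5:90891125-90891244, plus strand): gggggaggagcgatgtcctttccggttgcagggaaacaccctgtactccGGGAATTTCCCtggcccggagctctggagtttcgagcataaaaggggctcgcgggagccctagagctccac
Cxcl2 (chr5:90903779-90903898, plus strand): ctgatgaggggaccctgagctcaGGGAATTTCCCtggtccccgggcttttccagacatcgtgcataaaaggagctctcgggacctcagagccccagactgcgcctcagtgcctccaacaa
Cxcl3 (chr5:90785981-90786100, plus strand): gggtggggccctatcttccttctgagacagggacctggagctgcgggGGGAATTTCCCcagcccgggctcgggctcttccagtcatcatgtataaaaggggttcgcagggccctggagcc
Cxcl10 (chr5:92348890-92349119, minus strand): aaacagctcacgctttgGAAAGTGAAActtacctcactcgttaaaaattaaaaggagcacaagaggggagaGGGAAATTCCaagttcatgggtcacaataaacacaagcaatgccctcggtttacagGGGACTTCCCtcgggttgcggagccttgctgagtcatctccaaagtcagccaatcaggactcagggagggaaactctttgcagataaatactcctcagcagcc
Cxcl13 (chr5:95956819-95956938, plus strand): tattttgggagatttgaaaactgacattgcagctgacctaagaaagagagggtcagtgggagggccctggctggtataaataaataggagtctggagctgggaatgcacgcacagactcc
Cxcl12 (chr6:117168415-117168534, plus strand): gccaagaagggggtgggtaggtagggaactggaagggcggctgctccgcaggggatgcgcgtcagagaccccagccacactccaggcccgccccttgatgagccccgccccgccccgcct

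The RefSeq table held promoters, from 250 bases before to 50 bases after the start, for 8 of the 10 members; Cxcl5 and Cxcl16 had no entry. The 10 letters GGGAATTTCC occurred in Cxcl1 from base -71 to -62, in Cxcl2 from -97 to -88 and in Cxcl3 from -73 to -64, counted from the start. The same element read on the other strand matches the consensus again, shifted by 1 base, which gives the 11 capitals. That 10-letter word was chosen from the members' own promoters and lies in 29 of all 32851 promoters of that length (0.0883%). The Cxcl10 promoter had NF-kB matches from -159 to -150 and from -103 to -94, and the sequence GAAAGTGAAA from -213 to -204. NF-kB matches lay in 4.51% of all promoters and GAAANNGAAA, on either strand, in 3.44%. Cxcl14 had a GAAANNGAAA match from -172 to -163 and no NF-kB match. The word TATAAA, on either strand, lay in the promoters of Cxcl3, Cxcl9 and Cxcl13 and in 13.6% of all. In these windows Cxcl9, Cxcl12 and Cxcl13 held neither of the first 2 motifs. A match describes the letters only.

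Values are log2 probe set summaries, so a difference of 1 is 2-fold. A floor was set at 6.55, the median over named probe sets and arrays, and a gene was counted where its brighter array reached the floor and the deposited difference was at least 2-fold. Where the dimmer array lay under the floor, the difference from the floor is given as a lower bound ("at least"). Over the 5222 negative control probe sets, the 95th percentile on the 6 arrays was 10.2 to 10.74, so levels below about that height are shared with control probes. The controls' median was 6.69, 6.59 and 6.71 in CF with PBS, Ccrl2+ and Ccrl2-, above the floor, and 6.2 to 6.26 in CM. Reaching the floor therefore does not show that a gene was detected. Fibroblast markers averaged 16.06 to 16.29 in the CF arrays and 10.61 to 11.72 in the CM arrays, and cardiomyocyte markers 8.64 to 10.03 and 15.72 to 15.93, as the labels state. In CM with Ccrl2-, 4 of 7 fibroblast markers (Col1a1, Col1a2, Col3a1 and Tcf21) were at least 2-fold higher than with PBS and 0 lower. Over all genes past the floor 0.746% were higher there. With Ccrl2+ 0 of the 7 were counted against PBS in CM. The part of fibroblast transcripts in the CM values of the members was not tested. Endothelial markers averaged 13.02 to 13.05 in the CM arrays against 8.14 to 8.9 in the CF arrays. Across genes, which are not replicates, CM arrays correlated at 0.995 to 0.996 (Pearson) with each other and CF arrays at 0.973 to 0.986.

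In fibroblasts with the Ccrl2- secretome, 7 of the 10 CXC ligands were at least 2-fold higher than in PBS and 0 were lower. They were all 4 ELR ligands, Cxcl10, Cxcl13 and Cxcl16. With the Ccrl2+ secretome only Cxcl13 of the 10 was counted, and in cardiomyocytes no member was counted with either secretome. Over the whole set of genes whose brighter array reached the floor, the share higher by 2-fold or more was 6.18% and the share lower 4.83% in the CF Ccrl2- comparison, 4.87% and 6.13% in the CF Ccrl2+ comparison, 0.746% and 0.786% in the CM Ccrl2- comparison, and 0.21% and 0.629% in the CM Ccrl2+ comparison. The comparisons within a cell type share its PBS array. Of the 8 members past the floor in the CF Ccrl2- comparison, 6 passed it only through the Ccrl2- array, so a median over them is no support. It was 6.74 on the deposited differences and 5.34 with the dimmer values raised to the floor, and the median deposited difference of all 10057 genes past the floor was -0.09.

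**Figure D1:**
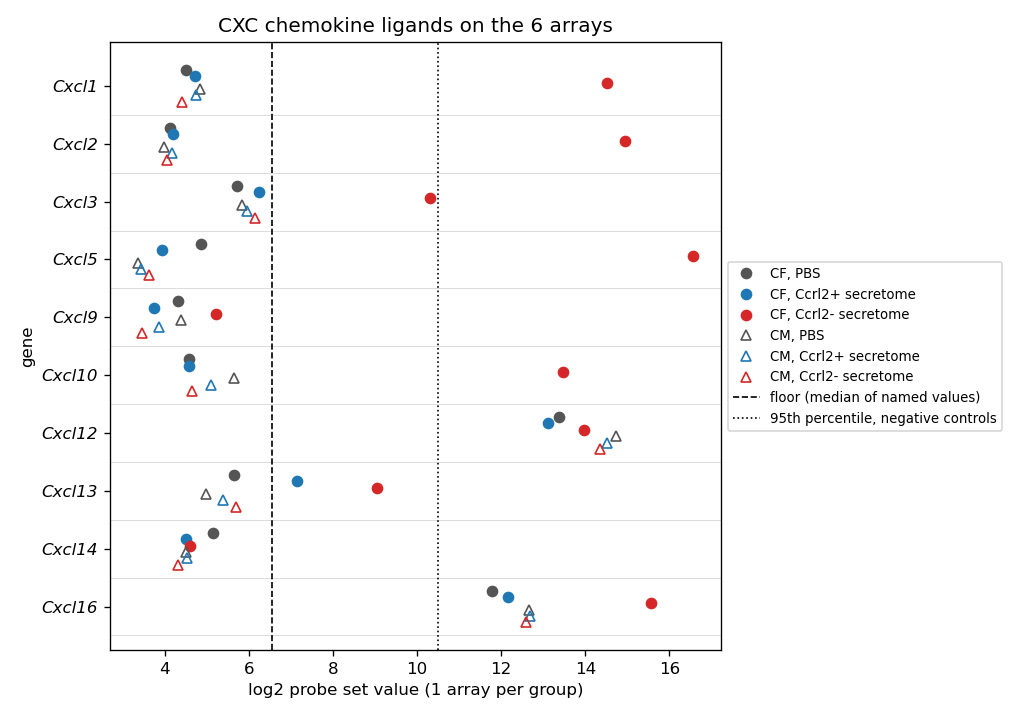
Log2 probe set value (x axis) of each of the 10 CXC ligand genes (y axis) on the 6 arrays, 1 array per group; filled circles are fibroblasts, open triangles cardiomyocytes, and colours give PBS, Ccrl2+ and Ccrl2- secretome. The dashed line is the floor of 6.55 and the dotted line the 95th percentile of the negative controls over all arrays; the red circle (CF, Ccrl2-) stands far to the right of the other arrays for Cxcl1, Cxcl2, Cxcl5 and Cxcl10, and Cxcl12 and Cxcl16 lie right of both lines on all arrays.

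Cxcl5, an ELR ligand typical of stromal and epithelial cells, lay at 4.86 in CF with PBS, 3.93 with the Ccrl2+ secretome and 16.56 with the Ccrl2- secretome. In CM it lay at 3.36 with PBS, 3.43 with Ccrl2+ and 3.62 with Ccrl2-. It was therefore above the floor on the CF Ccrl2- array alone, at least 10.01 higher than on the CF PBS array. Its level there was above 99.7% of the negative controls of that array.

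Cxcl2, an early neutrophil attractant also made by macrophages, lay at 4.12 in CF with PBS, 4.2 with Ccrl2+ and 14.95 with Ccrl2-. The CM values were 3.98 with PBS, 4.17 with Ccrl2+ and 4.05 with Ccrl2-. The CF Ccrl2- array was again the single array above the floor, at least 8.4 above CF with PBS. Cxcl1, whose product likewise binds Cxcr2, lay at 4.52, 4.72 and 14.52 in CF with PBS, Ccrl2+ and Ccrl2-, and at 4.85, 4.75 and 4.42 in CM in that order. It was at least 7.97 higher on the CF Ccrl2- array than on the CF PBS array, and the other 5 arrays lay within the range 4.42 to 4.85.

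Cxcl3, the fourth ELR ligand, had the lowest place of the 4 among the negative controls of the CF Ccrl2- array. It lay at 5.73, 6.25 and 10.3 in CF with PBS, Ccrl2+ and Ccrl2-, and at 5.83, 5.97 and 6.16 in CM in that order. The CF Ccrl2- value was at least 3.75 above PBS but did not reach 10.69, the 95th percentile of that array's negative controls, and 93.4% of those controls were dimmer. Cxcl1, Cxcl2 and Cxcl3 have related transcripts, and how far the probes of each bind the others was not tested.

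Cxcl10, the interferon-induced ligand of Cxcr3, lay at 4.57 in CF with PBS, 4.58 with Ccrl2+ and 13.47 with Ccrl2-. In CM it was below the floor on all 3 arrays, at 5.64 with PBS, 5.11 with Ccrl2+ and 4.66 with Ccrl2-. The CF Ccrl2- array was at least 6.92 above the CF PBS array. With a floor at the 95th percentile of all negative controls (10.51) that bound was 2.96, and those of Cxcl5, Cxcl2 and Cxcl1 were 6.05, 4.44 and 4.01. Cxcl9, its relative for the same receptor, was below the floor on all 6 arrays (3.46 to 5.22), with its highest value on the CF Ccrl2- array.

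**Figure D2:**
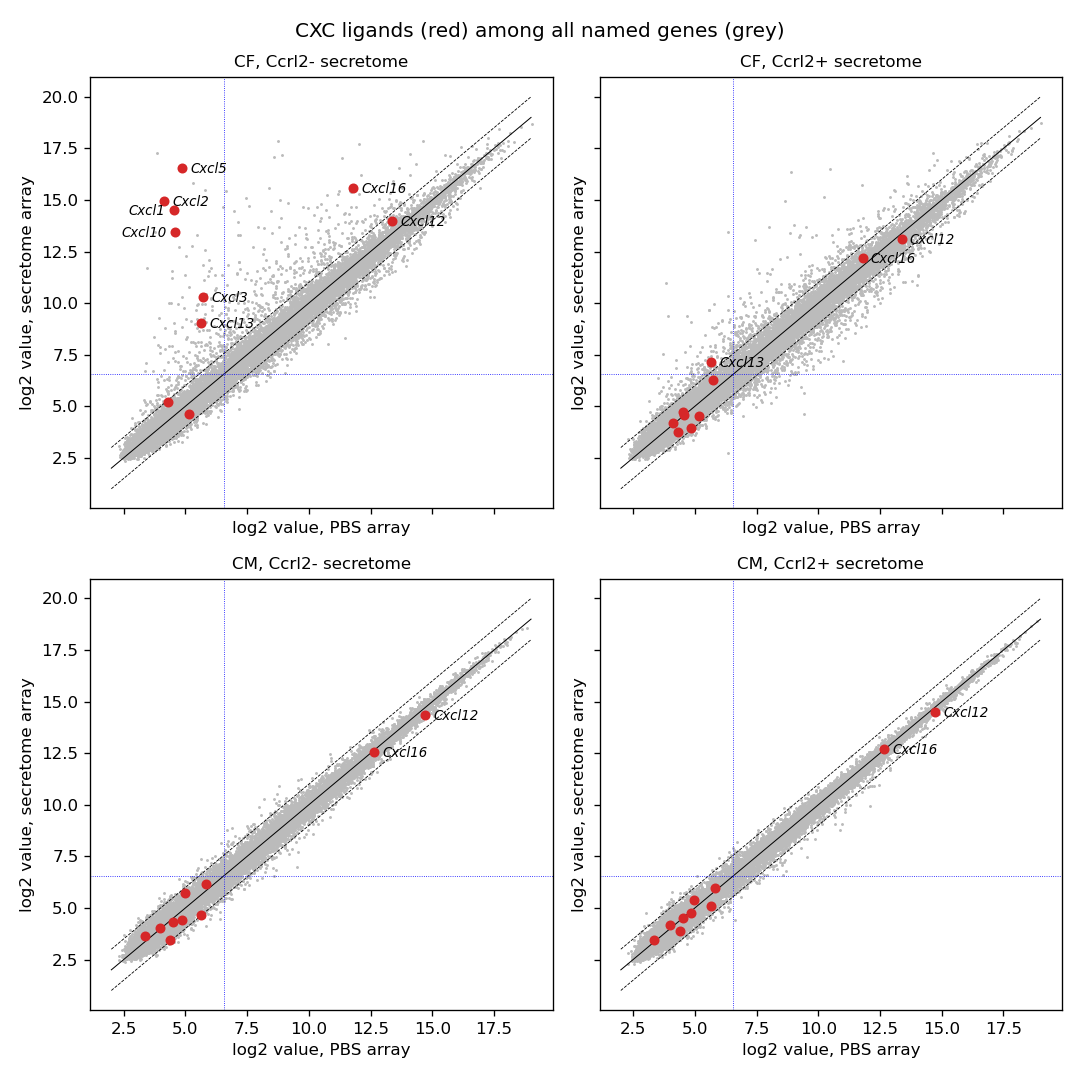
Each panel plots every named gene (grey) by its log2 value on the PBS array (x axis) and on the secretome array (y axis) of the same cell type; CXC ligands are red, with names where the brighter value reaches the floor. The solid line marks equal values, dashed lines 2-fold, and dotted lines the floor of 6.55; in the panel of CF with Ccrl2- 7 named members lie above the upper dashed line, while in the CM panels all red points lie between the dashed lines.

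Cxcl16, the transmembrane ligand that binds Cxcr6 and also takes up oxidised lipoprotein, was bright on all 6 arrays. In CF it lay at 11.79 with PBS, 12.17 with Ccrl2+ and 15.56 with Ccrl2-, a 13.6-fold difference (3.77) between Ccrl2- and PBS with both arrays measured above the floor. Among the 9409 genes above the floor on both of those arrays it ranked 50th from the highest difference. In CM it lay at 12.65 with PBS, 12.68 with Ccrl2+ and 12.58 with Ccrl2-, a range of 0.1. The sheddases that release it were also measured: Adam17 lay at 11.78 in CF with PBS, 12.27 with Ccrl2+ and 13.65 with Ccrl2-, while Adam10 lay at 13.75, 13.65 and 13.48.

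Cxcl12, the ligand of Cxcr4 that stromal cells make in the resting heart, was also bright throughout. In CF it lay at 13.37 with PBS, 13.12 with Ccrl2+ and 13.97 with Ccrl2-, and in CM at 14.72, 14.52 and 14.35. All 3 CM arrays were above all 3 CF arrays. The difference from PBS was 0.60 with Ccrl2- and -0.25 with Ccrl2+ in CF, and -0.37 and -0.20 in CM, so none of the 4 reached 2-fold. In bulk RNA, fewer cells of a type and less RNA per cell cannot be told apart, and endothelial markers, from cells known to make Cxcl12, were far brighter in the CM arrays. Their part in the Cxcl12 difference was not tested.

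Cxcl13, best known from the B cell zones of lymphoid tissue, lay at 5.65 in CF with PBS, 7.15 with Ccrl2+ and 9.05 with Ccrl2-, and at 4.98, 5.4 and 5.71 in CM. Both CF secretome arrays were above the floor and the PBS array below it. The bound was at least 2.5 for Ccrl2- and at least 0.60 for Ccrl2+, the latter under 2-fold although the deposited values differ by 1.5. Both levels are within the range of the negative controls, 84.4% of which were dimmer on the CF Ccrl2- array and 59.7% on the CF Ccrl2+ array. Cxcl14 was below the floor on all 6 arrays, from 4.31 to 5.15.

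The deposited differences of Cxcl5 (11.7), Cxcl2 (10.83), Cxcl1 (10) and Cxcl10 (8.9) between CF with Ccrl2- and CF with PBS were larger than those of all the negative control probe sets, which ran from -8.79 to 6.03. Those of Cxcl3 (4.57), Cxcl16 (3.77) and Cxcl13 (3.4) lay inside that range. Of the 2995 control probe sets with a value past the floor, 6.84% were higher by 2-fold or more and 6.21% lower. In CF with Ccrl2+ the controls gave 8.52% and 11.2%, and in CM 7.93% and 9.77% with Ccrl2- and 6.06% and 6.8% with Ccrl2+, all above the shares over genes. The full range of the control differences was wider in some other pairs of arrays. It ran from -13.59 to 4.91 in CM with Ccrl2+ against PBS and from -11.36 to 5.81 between the CM secretome arrays. Between the CF secretome arrays (Ccrl2+ minus Ccrl2-) it ran from -7.57 to 8.9, and Cxcl10 differed there by -8.89.

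Set directly against each other, the CF secretome arrays differed in the same 7 ligands, in a comparison that shares the Ccrl2- array with the one above. All 7 were at least 2-fold lower with the Ccrl2+ than with the Ccrl2- secretome and 0 were higher, where 10.1% of the 10144 genes past the floor were lower and 8.55% higher. Cxcl5 was lower by at least 10.01, Cxcl2 by at least 8.4, Cxcl1 by at least 7.97, Cxcl10 by at least 6.92 and Cxcl3 by at least 3.75. These bounds equal those against PBS because the Ccrl2+ and the PBS arrays were both under the floor for these 5 genes. Cxcl16 differed by -3.39 and Cxcl13 by -1.9, with both arrays above the floor, and Cxcl12 by -0.85. Between the same arrays, 6 of the 7 cardiomyocyte markers that reached the floor were at least 2-fold higher with Ccrl2+. Tnnt2 lay at 17.03 against 15.08 and Myh6 at 11.13 against 9.65. Also higher were 2 of 4 epicardial and mesothelial markers, with Msln at 13.28 against 9.97. The same held for 2 of 7 endothelial markers, with Fabp4 at 11.41 against 9.8, and for 2 of 7 fibroblast markers (Tcf21 and Lum). Of 11 macrophage markers, 5 were higher with Ccrl2+ (Mertk, C1qa, C1qb, C1qc and Mrc1) and 2 lower (Adgre1 and Cd14). The summed linear level of the cardiomyocyte list was 17.1 with Ccrl2+ and 15.17 with Ccrl2- as log2. The part of these cells' transcripts in the ligand differences was not tested. In CM the Ccrl2+ and Ccrl2- arrays differed by 0.17 in Cxcl12 and 0.1 in Cxcl16, no member was counted, and 0.13% of genes were higher and 0.18% lower. Between the cell types in PBS, Cxcl12 was lower in CF than in CM (difference -1.35), Cxcl16 differed by -0.86, and the other 8 members were under the floor on both arrays. There 13.9% of genes were at least 2-fold higher in CF and 16.9% lower.

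On chromosome 5, RefSeq places Cxcl5, Ppbp, Pf4, Cxcl3, Cxcl15, Cxcl1 and Cxcl2 next to one another in that order among protein-coding genes, and the CF Ccrl2- array was high for some of these neighbours and under the floor for others. Ppbp, a platelet chemokine gene between Cxcl5 and Pf4, stayed at 2.98 in CF with PBS, 2.76 with Ccrl2+ and 3.19 with Ccrl2-. Cxcl15, a lung chemokine gene between Cxcl3 and Cxcl1, stayed at 4.41, 4.6 and 4.45 in that order. Both were under the floor on all 6 arrays. Pf4, which encodes platelet factor, a product of megakaryocytes and some macrophages, lay at 6.42 in CF with PBS, 8.28 with Ccrl2+ and 7.96 with Ccrl2-, so it was at least 1.73 and at least 1.41 higher with the secretomes; in CM it lay between 5.33 and 6.15. The flanking gene Mthfd2l lay at 9.45, 9.05 and 10.18 in CF.

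The second group on that chromosome holds Cxcl9, Art3, Cxcl10 and Cxcl11 in that order. Cxcl11, a transcribed pseudogene in the RefSeq table, was under the floor on all arrays (3.43 to 4.07). Art3, an ADP-ribosyltransferase family gene of muscle that lies between Cxcl9 and Cxcl10 and was picked out after its values were seen, lay at 7.99 in CF with PBS, 13.68 with Ccrl2+ and 7.65 with Ccrl2-. On the CF Ccrl2+ array, where Art3 was high, Cxcl9 and Cxcl10 lay at 3.76 and 4.58. Art3 was lower both with PBS, where Cxcl10 lay at 4.57, and with Ccrl2-, where Cxcl10 lay at 13.47. In CM Art3 was brighter still, at 15.7, 15.59 and 15.53 with PBS, Ccrl2+ and Ccrl2-. Of the 5 CXC ligands outside the members, Cxcl17 was the remaining one and lay between 4.52 and 5.6.

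**Figure D3:**
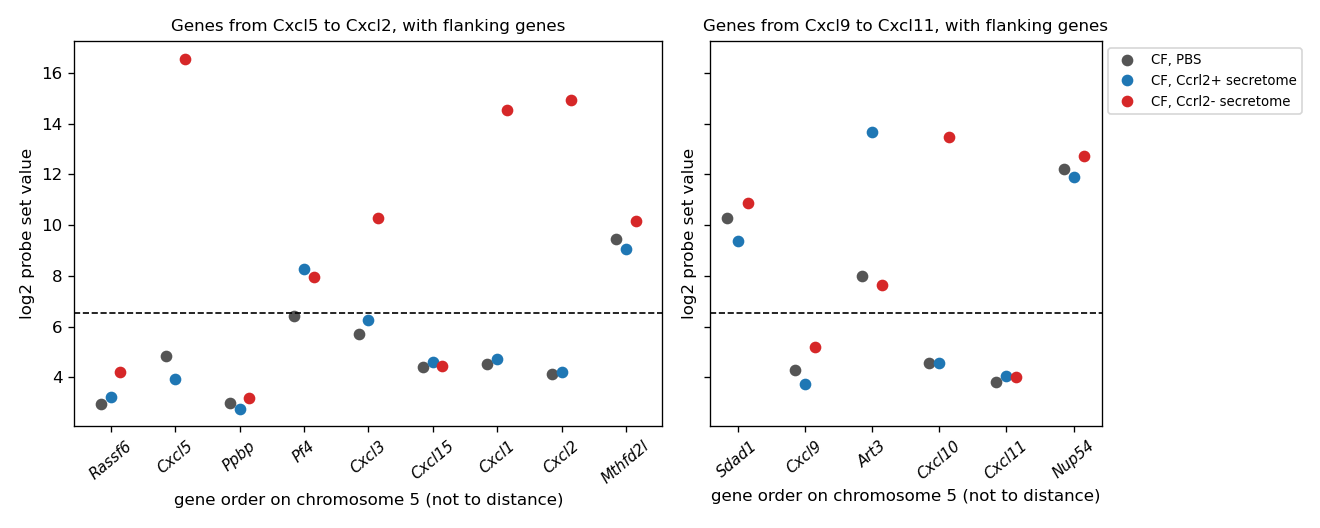
Log2 probe set value (y axis) on the 3 fibroblast arrays for the genes from Cxcl5 to Cxcl2 (left) and from Cxcl9 to Cxcl11 (right), each with a flanking gene on either side, in RefSeq order and not to distance (x axis); 1 array per group, and the dashed line is the floor of 6.55. The Ccrl2- array (red) is high for Cxcl5, Cxcl3, Cxcl1, Cxcl2 and Cxcl10 while Ppbp, Cxcl15, Cxcl9 and Cxcl11 between or beside them lie under the floor; the Ccrl2+ array (blue) is high for Art3.

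The receptors for these ligands were mostly dim in both cultures. Of 10 CXC and atypical chemokine receptor genes, 8 were under the floor on all 6 arrays. Cxcr2, the receptor of the ELR ligands, lay between 4.83 and 5.64, Cxcr3 between 5.49 and 6.31 and Cxcr6 between 3.14 and 3.83. Cxcr4, the Cxcl12 receptor, lay at 7.4, 6.92 and 7.14 in CM with PBS, Ccrl2+ and Ccrl2-, and under the floor in CF (6.23, 6.25 and 5.26). Ackr3, a scavenger of Cxcl12, lay at 7.78, 7.65 and 7.36 in CM; in CF it lay at 5.29 with PBS, 4.69 with Ccrl2+ and 6.85 with Ccrl2-. Its CF Ccrl2- value exceeded the floor by 0.30.

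Some genes that induce CXC ligands were also higher on the CF Ccrl2- array. Of 19 inducing cytokines and receptors, 16 were past the floor in CF with Ccrl2- against PBS, 11 were higher by 2-fold or more and 0 lower. Over all genes past the floor in that comparison, 6.18% were higher and 4.83% lower. Tnf, Il1a and Il1b passed the floor only through the Ccrl2- array, so no median is given. Il1b, whose product triggers NF-kB, lay at 4.73 in CF with PBS, 4.78 with Ccrl2+ and 12.72 with Ccrl2-, at least 6.17 higher. Tnf (5.04, 3.69 and 12.3) and Il1a (3.46, 3.56 and 11.68) were at least 5.75 and 5.13 higher. Tlr2, a receptor for bacterial lipoproteins, lay at 9.77, 9.73 and 14.68. The interferon genes Ifng and Ifnb1 and the cytokine gene Il17a were under the floor on all 6 arrays, and are named here after their values were seen.

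Of the NF-kB subunits and feedback genes, 13 of 15 listed were analysed here and all 13 were past the floor in CF. With Ccrl2- 9 exceeded PBS by 2-fold or more and 0 fell below it by as much. The shares over all genes past the floor were 6.18% higher and 4.83% lower. Relb and Nfkbie, 2 of the 9, passed the floor only through the Ccrl2- array. Tnfaip3, which encodes the feedback inhibitor A20, lay at 8.46 with PBS, 8.67 with Ccrl2+ and 14.45 with Ccrl2-. Nfkbia, the gene of the inhibitor IkB-alpha, lay at 10.2, 11.14 and 14.26, and Tnip1, which binds A20, at 9.59, 9.71 and 13.7. Bcl3, a nuclear IkB protein gene, lay at 6.7, 7.33 and 10.89. With Ccrl2+ 0 of the 11 past the floor were counted against PBS, and Nfkbia came near 2-fold (difference 0.94). There 4.87% of all genes past the floor were higher and 6.13% lower.

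Of 12 interferon signalling genes analysed, 10 were past the floor in CF with Ccrl2- against PBS, 5 were higher by 2-fold or more and 0 lower. Among all genes past the floor, 6.18% were higher and 4.83% lower. Irf7 and Socs3, 2 of the 5, passed the floor only through the Ccrl2- array. The transcription factor gene Irf7 lay at 5.51, 5.75 and 9.96 in CF with PBS, Ccrl2+ and Ccrl2- (at least 3.41 higher), and Irf1 at 7.85, 7.68 and 11.05. Jak2, a kinase of cytokine receptors, lay at 10.82, 11.31 and 14.18, and Stat2 at 10.67, 10.77 and 12.43. With Ccrl2+ the single gene counted against PBS was Irf2 (12.19 against 10.57), where 4.87% of all genes past the floor were higher. Il6, in the cytokine list, was lower with Ccrl2+ than with PBS (6.03 against 8.79, a difference of -2.24 when taken to the floor) and higher with Ccrl2- (13.67, a difference of 4.88).

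**Figure D4:**
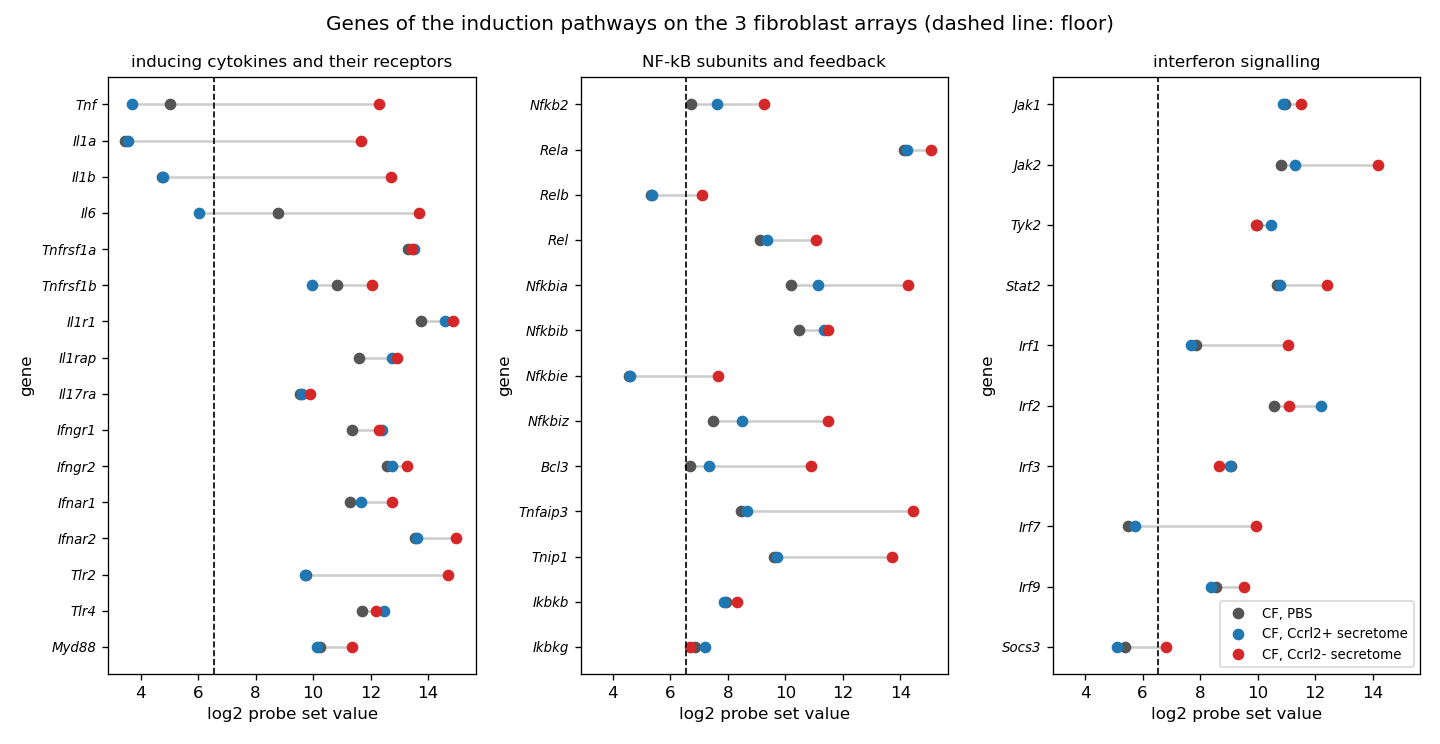
Log2 probe set value (x axis) on the 3 fibroblast arrays for the genes (y axis) of the 3 induction lists that reached the floor of 6.55 (dashed) on at least 1 of them; grey lines span the 3 values of a gene, and each group is 1 array. The Ccrl2- array (red) is the rightmost for Tnf, Il1a, Il1b, Tlr2, Tnfaip3, Nfkbia, Jak2 and Irf1, while the Ccrl2+ array (blue) lies within 1 log2 unit of PBS (grey) for those genes except Tnf, where it is lower (3.69 against 5.04, both under the floor), and is the rightmost for Irf2.

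Few genes that modify or hold CXC ligands, or degrade their messages, were counted in CF. Over all genes past the floor the shares were 6.18% higher and 4.83% lower with Ccrl2-, and 4.87% and 6.13% with Ccrl2+. A count of 1 in so short a list is no result about the list. Of 7 processing and mRNA decay genes past the floor in CF with Ccrl2- against PBS, 2 were higher and 0 lower: Zc3h12a, whose product degrades inflammatory messages, at 11.97 against 7.19, and Adam17. Of 8 such genes past the floor with Ccrl2+ against PBS, 1 was higher and 1 lower. The dipeptidyl peptidase gene Dpp4, whose product clips Cxcl10 and Cxcl12, was lower (9.72 against 11.21). Mmp8 was at least 0.32 higher, and passed the floor by that much on the Ccrl2+ array only. Of 9 genes for heparan sulfate carriers and their synthesis, which hold chemokines at the cell surface, 1 was higher with Ccrl2- (Sdc4, 15.78 against 13.47) and 1 lower with Ccrl2+ (Ext1, 13.36 against 14.77). In CM none of these 5 lists of inducers, NF-kB, interferon signalling, processing and retention had a gene counted in the comparisons of a secretome with PBS or of the secretomes with each other.

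Both cultures carried macrophage transcripts, and macrophages can make CXC ligands. All 11 macrophage markers analysed, of 12 listed, were above the floor in CF, with means of 10.51 with PBS, 10.86 with Ccrl2+ and 10.13 with Ccrl2-. The summed linear level of the list was 14.67, 15.34 and 14.66 as log2. In CF with Ccrl2- 3 of the 11 were at least 2-fold higher than in PBS (Adgre1, Lyz2 and Cd14) and 6 lower (Csf1r, Mertk, C1qa, C1qb, C1qc and Mrc1). Over all genes past the floor these shares were 6.18% and 4.83%. Ptprc, the pan-leukocyte gene, lay at 9.06, 9.18 and 9.17 in CF with PBS, Ccrl2+ and Ccrl2-. With Ccrl2+ Mertk and C1qc were higher than in PBS and Cd14 lower, where the shares over all genes were 4.87% and 6.13%. In CM the mean was 10.43 with PBS, 9.57 with Ccrl2+ and 9.94 with Ccrl2-, and the summed level 14.88, 13.97 and 14.37. There Ccrl2+ was below PBS by 2-fold or more for 6 of the 10 markers that reached the floor (Csf1r, Fcgr1, C1qa, C1qb, C1qc and Mrc1), and 0 of 10 were counted with Ccrl2-. Over all genes past the floor in CM, 0.629% were lower with Ccrl2+. With Ccrl2- 0.746% were higher and 0.786% lower. The part of macrophage transcripts in the ligand levels was not tested. All 8 neutrophil markers analysed, of 9 listed, S100a8 and S100a9 among them, were under the floor on every array except Mmp8 on the CF Ccrl2+ array (6.87). The mean of that list was 4.06 in CF with PBS, 4.79 with Ccrl2+ and 4.48 with Ccrl2-, and its summed level 7.16, 8.2 and 7.7 as log2. The 7 T and NK cell markers averaged 3.66 to 3.77 on the 6 arrays.

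**Figure D5:**
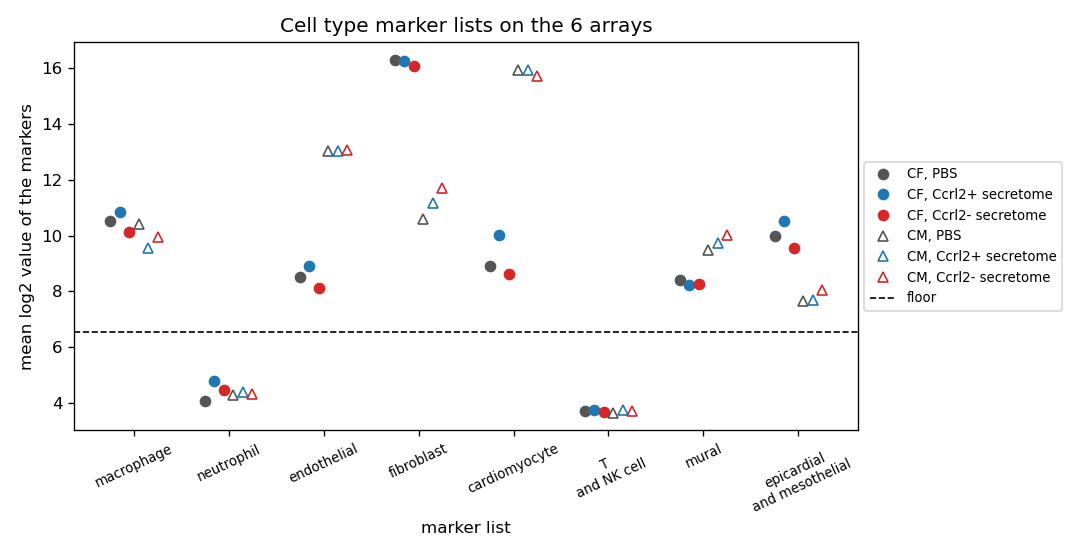
Mean log2 value (y axis) of the genes of 8 cell type marker lists (x axis) on each of the 6 arrays. Filled circles are fibroblasts, open triangles cardiomyocytes, and colours give PBS, Ccrl2+ and Ccrl2- secretome. The dashed line is the floor of 6.55. Macrophage means lie between 9.57 and 10.86 on all 6 arrays, neutrophil and T and NK cell means lie under the floor, and endothelial means are near 13 in cardiomyocytes only.

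Genes with the pattern most like a member were found by root mean square distance. It was taken between the 6 values of each gene, centred on its own mean. The search started from 10779 genes above the floor on at least 1 array. Genes with predicted, Rik, accession-type, olfactory, vomeronasal, microRNA or small nucleolar symbols were then left out of the ranking. Nearest to Cxcl5 were Cxcl2 (distance 0.85), Cxcl1 (1.21), the lectin receptor gene Clec4e (1.31), the itaconate enzyme gene Acod1 (1.37) and Tnf (1.56). Nearest to Cxcl10 were Il1b (0.45), Acod1 (0.48), the prostaglandin E synthase gene Ptges (0.5), the interferon-induced GTPase gene Gbp2 (0.52) and the pentraxin gene Ptx3 (0.55). All of these 9 genes were highest on the CF Ccrl2- array, which alone sets the likeness. Nearest to Cxcl12 were Nifk (0.07), the iron regulator gene Hfe (0.08), the uridine kinase gene Uck2 (0.09), Gpatch4 (0.09) and Macrod1 (0.1), all 5 of which were, like Cxcl12, higher on each CM array than on each CF array.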

How the data were processed

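RNA of 6 cultures, 1 array each, was labelled with biotin for Affymetrix arrays, per the labels' protocols. The authors deposited log2 values, 1 for each probe set; the submitters' processing notes name Affymetrix Expression Console, with its version, summary method and build not given in the sources used here. The log2 scale was read from the values, and sorted values of the 6 arrays differ by at most 0.3 at any rank, so a shift of most genes would not show.

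Of 28846 probe sets, 19572 had a symbol in the annotation, and all their Entrez identifiers matched RefSeq GRCm38.p6. For 55 symbols with several probe sets the one with the highest mean was used, which left 19505 genes. Named genes are the members, the other CXC ligands and receptors, up to 4 genes per other list with the largest difference in the comparison described, and the 5 nearest patterns to Cxcl5, Cxcl10 and Cxcl12; names outside this rule are marked or are cell type markers and neighbours. Members and lists were chosen with earlier results of these data known. Marker means and promoter matches are descriptions.

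The counting rule was checked on simulated data with known changes, added only to genes well above the floor. Its noise was taken from the CM Ccrl2+ and Ccrl2- arrays. Genes under the floor on either array, and the less alike CF arrays, were therefore not covered. The alternatives were 1.5- and 3-fold thresholds, no floor, the 75th percentile as floor, further quantile normalization, a loess trend (span 0.4) removed, means over probe sets and, added after seeing the data, a floor at the 95th percentile of the negative controls. Python 3.11.15, numpy 2.4.6, pandas 2.3.3, statsmodels 0.14.6 and matplotlib 3.10.9 were used.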

Additional observations from a re-analysis of the deposited data

Results flagged for a closer look

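Cxcl16 with the Ccrl2- secretome was 3.77 higher than in PBS in fibroblasts and differed by -0.07 in cardiomyocytes, a gap of 3.84. The signs are opposite, but the cardiomyocyte values were 12.58 and 12.65, and with 1 array each the sign of so small a difference cannot be judged. Cxcl12 with the same secretome differed by 0.60 in fibroblasts and -0.37 in cardiomyocytes, a gap of 0.97. Each effect rests on 1 pair of arrays, and neither difference between the cell types was tested. The other members were under the floor on at least 1 of the 4 arrays concerned and were not compared in this way. No group had enough arrays for a check of outlying samples.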

How the results depend on the processing

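The 7 members counted in CF with Ccrl2- against PBS, and the 7 counted between the CF secretome arrays, gave counts within 1.5 times under all 8 alternatives, and no counted difference changed direction. The 1 member counted in CF with Ccrl2+ against PBS became 0 at 3-fold, 0 with the floor at the 75th percentile (10.14) and 0 with the added floor at 10.51, the controls' 95th percentile. The 1 member counted between CF and CM in PBS became 2 at 1.5-fold, 0 at 3-fold and 3 with no floor. With the added floor, 5 members were counted in CF with Ccrl2- against PBS. Lower bounds move with the floor: in CF with Ccrl2- against PBS that of Cxcl5 was 6.42 with the floor at 10.14 and the difference 11.7 with no floor, and that of Cxcl3 was 0.16 and 4.57. For Cxcl2, Cxcl1 and Cxcl10 the bounds with the floor at 10.14 were 4.81, 4.38 and 3.33. The counts in the 3 CM comparisons were 0 under all 8 alternatives. No paired analysis was possible because each group has 1 array. Signal over background limits Cxcl3, Cxcl9, Cxcl13 and Cxcl14, which did not exceed that percentile of their own array's controls on any array.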

Other observations

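Promoter letters were set beside the array values for all genes with a RefSeq promoter, as a description with no test. Of 8188 such genes past the floor in CF with Ccrl2- against PBS, 5.89% were higher by 2-fold or more and 4.47% lower. Of 485 with an NF-kB consensus match, 14.2% were higher and 4.54% lower. Of 310 with GAAANNGAAA, 20.6% were higher and 4.52% lower. Of 747 with TATAAA, 9.77% were higher and 6.29% lower. The lists share genes, and all of them hold members. Of 12 genes past the floor with GGGAATTTCC, 4 were higher, and 3 of these were Cxcl1, Cxcl2 and Cxcl3, from whose promoters the word was taken.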
